A study of Homo sapiens with 38 samples.

Results

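The collagen chain genes, the protein-coding genes whose symbols read COL, a number, A and a number, were followed in the RNA of HCT116 cells, a human colorectal cancer line, and of 4 Argonaute knockout lines made from it. The annotation holds 44 such genes among the 58425 genes that the quantified transcripts could be assigned to, and transcripts of all 44 were present in the files. The rule uses names only and no measured value. Transcript abundances were given as estimated reads and as TPM, a level scaled by transcript length and library total, and both were summed per gene. TPM is used below for levels and for comparing genes, and estimated reads for the tests.

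The groups were wild-type HCT116 cells (passages 27, 28 and 29) and lines labelled AGO1 knockout (passages 6, 7 and 8), AGO2 knockout (passages 8, 9 and 10), AGO1/2 knockout (passages 9, 10 and 11) and AGO1/2/3 knockout (passages 11, 12 and 14). Each group gave 3 nuclear and 3 cytoplasmic libraries of ribosomal RNA-depleted total RNA, 30 in all, with no treatment beyond the gene disruption. Argonaute proteins carry microRNAs, and the design asks how RNA in either fraction differs when these proteins are missing. Each genotype is 1 line, and wild-type and knockout cells share no passage number, so the knockout, the clone and the passage cannot be told apart. The replicates are passages of 1 line, so the p-values measure the spread between such cultures and not between independently made lines.

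A collagen is a trimer of chains wound into a triple helix, and every gene here encodes 1 chain. Fibrillar collagens form the fibrils of connective tissue, fibril-associated collagens decorate them, type IV collagens build the basement membrane sheet, type VI collagens form beaded filaments, and transmembrane collagens sit in the cell surface with a helix outside the cell. Epithelial cells mainly make basement membrane and surface collagens, whereas fibroblasts make the fibrils. miR-29, a microRNA family, is known for its many targets among collagen genes.

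Nuclear libraries held 20431557 to 54097984 estimated reads and cytoplasmic libraries 39476205 to 79731793. AGO1 RNA was lower in the 3 lines labelled as lacking it, with a cytoplasmic log2 fold change against wild type of -3.49 in the AGO1, -3.19 in the AGO1/2 and -3.29 in the AGO1/2/3 knockout. Cytoplasmic AGO2 RNA was -0.67 in the AGO2, 0.31 in the AGO1/2 and 0.11 in the AGO1/2/3 knockout, against -0.47, -0.18 and -0.44 in nuclei. AGO3 RNA in the AGO1/2/3 knockout was 0.34 in the cytoplasm and -0.30 in nuclei, both called. A gene-level RNA sum does not show a small insertion or deletion, so AGO2 and AGO3 RNA did not check those labels. Keratin 8, 18 and 19 and EPCAM, markers of colon epithelium, were at 498 ± 24.0 TPM, 369 ± 16.2 TPM, 226 ± 47.9 TPM and 98.1 ± 6.96 TPM in wild-type nuclei, whereas CDX1, VIL1 and LGALS4 were below 0.1 TPM. Of 8 fibroblast markers, DCN, LUM, PDGFRA, THY1, FAP and POSTN were below 0.1 TPM in every group.

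Collagen RNA was a small part of these transcriptomes. Collagen genes took 0.0643 to 0.0804% of the estimated reads in wild-type nuclei, 0.134 to 0.140% in AGO1/2 and 0.127 to 0.143% in AGO1/2/3 knockout nuclei, and 0.0215 to 0.0369% in the cytoplasmic libraries. The summed level was 117 ± 10.3 TPM (SD, n = 3) in wild-type nuclei, 114 ± 9.71 in AGO1, 115 ± 7.08 in AGO2, 244 ± 1.65 in AGO1/2 and 206 ± 9.86 in AGO1/2/3 knockout nuclei. The 3 libraries of each of the last 2 lines, at 242 to 246 TPM and at 198 to 217 TPM, lay above the wild-type libraries, at 108 to 129 TPM. In the cytoplasm the sum was 41.6 ± 5.73 TPM in wild type, 35.3 ± 2.84 in AGO1, 35.9 ± 0.966 in AGO2, 43.3 ± 9.39 in AGO1/2 and 54.8 ± 5.12 in AGO1/2/3 knockout cells.

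A mean of 1 TPM or more in at least 1 of the 10 groups was reached by 16 genes, and the other 28 stayed at or below 0.741 TPM. Of those 28, 19 were below 0.1 TPM in every group, among them the main fibroblast chains COL1A2 and COL3A1, and 3 had no read in any library. Wild-type nuclei held most COL4A5, with 20.6% of the summed collagen TPM, then COL12A1 with 17.4% and COL6A2 with 14.9%. In AGO1/2 knockout nuclei the leading genes were COL12A1, COL13A1 and COL6A1, with 25.5, 23.0 and 20.6%.

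**Figure D1:**
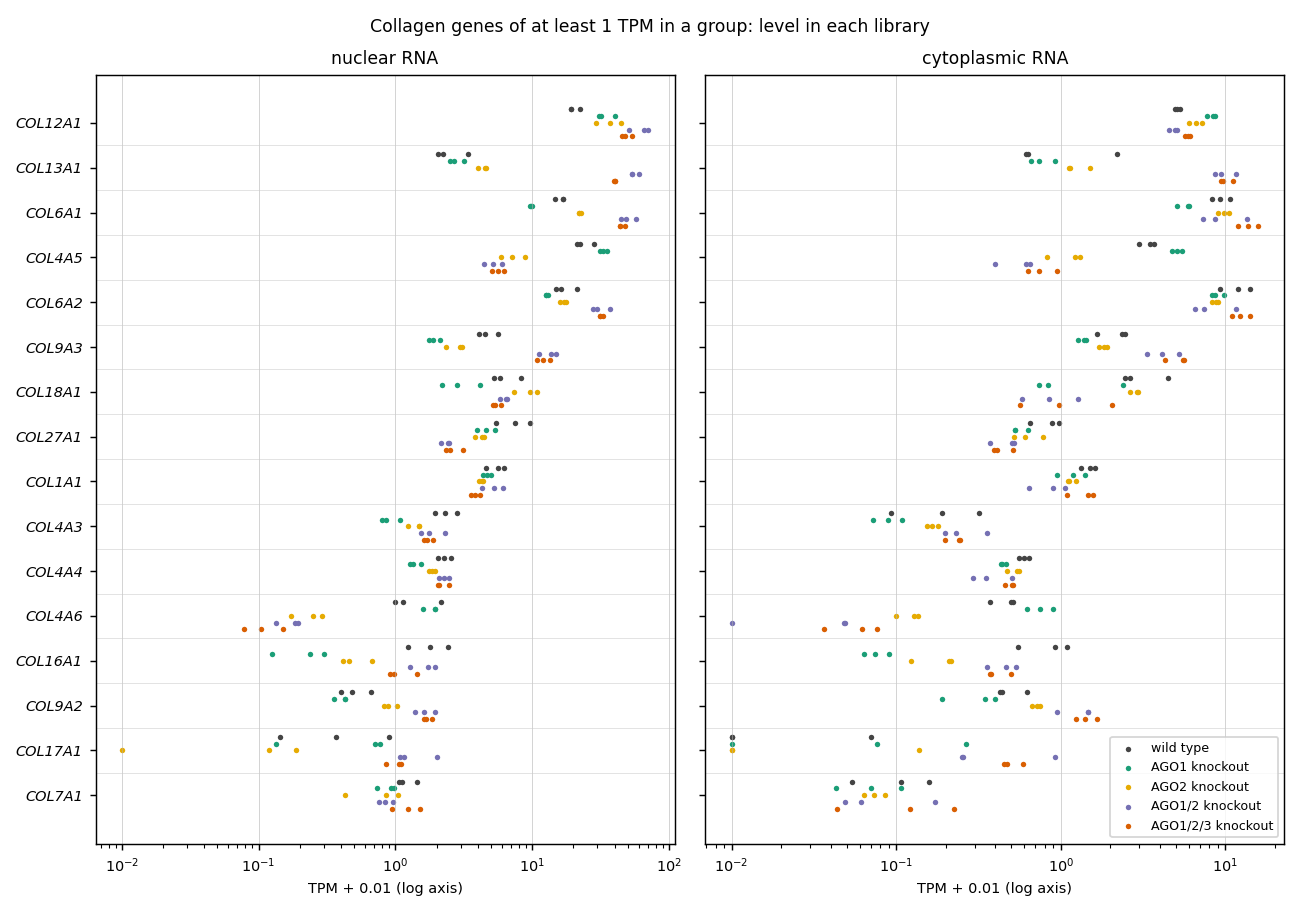
Level of the 16 collagen genes with a mean of at least 1 TPM in a group, 1 point per library, on a log axis of TPM + 0.01, for nuclear RNA (left) and cytoplasmic RNA (right). COL13A1 libraries of the AGO1/2 and AGO1/2/3 knockouts lie to the right of the others in both fractions, and COL4A5 and COL4A6 libraries of the AGO2, AGO1/2 and AGO1/2/3 knockouts lie to the left of wild type.

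A low-count filter left 25 collagen genes to test in nuclear and 21 in cytoplasmic RNA, the 16 genes above in both. Calls were made at an adjusted p of at most 0.05 by edgeR's quasi-likelihood test, adjusted over all genes tested. In nuclear RNA 3 collagen genes were higher and 9 lower in the AGO1 knockout, where 29.9% of all genes were called, and 5 were higher and 7 lower in the AGO2 knockout, against 40.2%. The AGO1/2 knockout had 9 higher and 8 lower, against 67.6%, and the AGO1/2/3 knockout 8 higher and 5 lower, against 58.6%. In cytoplasmic RNA 2 were higher and 4 lower in the AGO1 knockout (all genes, 12.4%), 2 higher and 4 lower in the AGO2 knockout (16.1%), 7 higher and 6 lower in the AGO1/2 knockout (49.2%) and 8 higher and 4 lower in the AGO1/2/3 knockout (38.7%). The median log2 fold change of the tested members in nuclei was -0.51, -0.31, -0.13 and -0.06 for the single AGO1 and AGO2 lines and then the double and triple knockouts, against -0.03, -0.02, -0.06 and -0.03 over all genes. Calls in either direction thus stood beside a median near that of all genes in the double and triple knockouts.

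Fewer genes were called when a log2 fold change of at least 1 in either direction was also asked for. In nuclear RNA such collagen genes numbered 0 higher and 5 lower in the AGO1 knockout, 2 and 4 in the AGO2, 9 and 4 in the AGO1/2 and 8 and 4 in the AGO1/2/3 knockout. The shares of all genes so called were 4.33, 6.21, 23.3 and 16.8%. The cytoplasmic counts were 1 and 2, 0 and 4, 6 and 2, and 6 and 2, against 3.12, 3.45, 11.5 and 8.70% of all genes. All 9 collagen genes that were higher in AGO1/2 nuclei passed this fold.

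In normalized reads, the 3 knockout libraries lay wholly above or wholly below the 3 wild-type libraries for 13, 13, 17 and 16 of the 25 nuclear members, with the knockouts in the same order. Over all genes tested the shares were 41.8, 48.4, 66.5 and 61.0%. Of the 21 cytoplasmic members 11, 7, 12 and 13 were so separated, against 29.7, 31.8, 51.0 and 46.5% of all genes. All 4 comparisons in a fraction use the same 3 wild-type libraries.

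**Figure D2:**
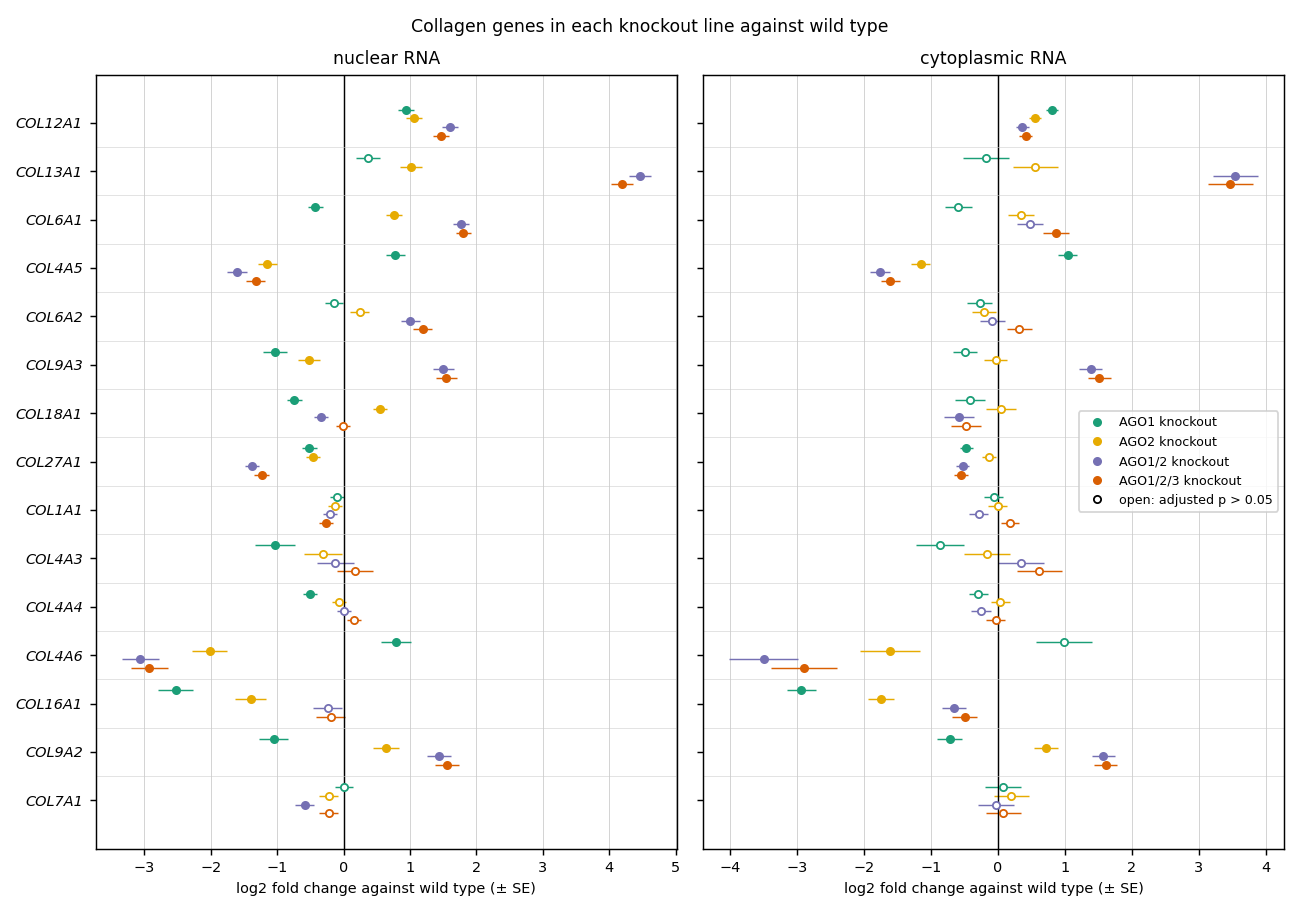
Log2 fold change against wild type with its standard error, from edgeR on summed estimated reads, for 15 collagen genes in 4 knockout lines, in nuclear (left) and cytoplasmic RNA (right), with filled points for calls. COL13A1 stands at 3.47 to 4.46 in the AGO1/2 and AGO1/2/3 knockouts, COL4A5 and COL4A6 lie to the right of 0 in the AGO1 knockout and to the left in the other lines, and COL17A1 is left out because its wild-type reads are near 0.

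COL13A1, on chromosome 10 (chr10:69801880-69964275, plus strand, GRCh38), encodes the chain of a transmembrane collagen known from cell adhesion sites and the neuromuscular junction. In wild-type nuclei it measured 2.03, 2.21 and 3.38 TPM, and in AGO1 knockout nuclei 2.51, 2.66 and 3.14 TPM, the ranges overlapping. AGO2 knockout nuclei held 3.98, 4.50 and 4.61 TPM, a little above every wild-type library. In AGO1/2 knockout nuclei the levels were 53.8, 54.0 and 60.5 TPM, and in AGO1/2/3 knockout nuclei 39.9, 40.0 and 40.2 TPM, more than 10 times every wild-type library. On the scale of reads the nuclear log2 fold changes were 0.37 ± 0.17 (adjusted p = 0.13) in the AGO1, 1.01 ± 0.17 (adjusted p = 2.6e-04) in the AGO2, 4.46 ± 0.17 (adjusted p = 2.1e-11) in the AGO1/2 and 4.20 ± 0.16 (adjusted p = 5.0e-11) in the AGO1/2/3 knockout, each with its SE. COL13A1 rose in 3 of the 4 lines, by 22.0-fold in the AGO1/2 and 18.3-fold in the AGO1/2/3 knockout.

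Cytoplasmic COL13A1 rose in the same double and triple knockouts. Wild-type cytoplasm held 0.606, 0.625 and 2.17 TPM, of which the highest is passage 29, which stood apart from the other two. The AGO1/2 knockout held 8.66, 9.36 and 11.6 TPM and the AGO1/2/3 knockout 9.38, 9.70 and 11.1 TPM, all above wild type. The log2 fold changes were 3.55 ± 0.34 (adjusted p = 9.6e-07) and 3.47 ± 0.34 (adjusted p = 1.8e-06). In the AGO1 and AGO2 knockouts they were -0.18 ± 0.35 and 0.55 ± 0.34 (adjusted p = 0.78 and 0.3). These last 2 results rested on 1 library: without wild-type passage 29 they became 0.74 and 1.48 and passed the test.

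The leading COL13A1 transcript, of 2991 bases, held 25.5% ± 7.62 of the gene's TPM in wild-type nuclei and 29.4% ± 0.932 in AGO1/2/3 knockout nuclei. Protein-coding transcripts together held 59.4% ± 19.4 in wild-type, 85.4% ± 1.54 in AGO1/2 and 82.9% ± 3.35 in AGO1/2/3 knockout nuclei. The knockout shares lay above all 3 wild-type shares, at an exact two-sided permutation p of 0.1, which is the smallest that 3 against 3 libraries can give, and 0.488 after adjustment over 122 such tests.

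Markers of other cell states were read in the same libraries. In the mesenchymal list (VIM, ZEB1, ZEB2, SNAI2, TWIST1, CDH2, FN1) 2 of 4 tested genes were higher and 0 lower in AGO1/2 and AGO1/2/3 knockout nuclei, and the summed level was 11.3 to 12.0 TPM in wild-type, 32.9 to 38.4 in AGO1/2 and 25.4 to 26.4 in AGO1/2/3 knockout nuclei. In the cytoplasm of both lines 2 of 5 were higher, VIM and ZEB1, and 2 lower, FN1 and SNAI2, and the sums were 4.53 to 7.05, 16.3 to 18.2 and 17.5 to 19.7 TPM in the same order. Over all genes tested 67.6 and 58.6% were called in nuclei of these lines, and 49.2 and 38.7% in the cytoplasm. VIM, which encodes the intermediate filament vimentin, went from 1.44 ± 0.289 TPM to 20.9 ± 1.30 TPM and 15.2 ± 0.0653 TPM in nuclei, whereas ZEB2, SNAI2 and CDH2 stayed below 0.1 TPM. In AGO1 knockout nuclei 2 of 4 were higher, VIM at 0.86 and ZEB1 at 0.39, and 2 lower, where 29.9% of all genes were called. In AGO2 knockout nuclei 0 of 4 were higher and 4 lower, against 40.2%.

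The colon epithelium list did not move as one. Its sum was 1154 to 1255 TPM in wild-type, 2598 to 2775 in AGO1/2 and 2014 to 2363 in AGO1/2/3 knockout nuclei, but 1173 to 1330, 808 to 981 and 1066 to 1322 TPM in the cytoplasm. Keratins carried the nuclear sums, with log2 fold changes of 1.34 for KRT8, 1.19 for KRT18 and 1.38 for KRT19 in AGO1/2 knockout nuclei. EPCAM fell in both fractions, at -0.56 in nuclei and -1.22 in the cytoplasm of the AGO1/2 and at -0.38 and -1.18 in the AGO1/2/3 knockout. CDH1, which encodes E-cadherin, went from 21.3 ± 7.36 TPM to 4.15 ± 1.08 TPM and 5.77 ± 0.726 TPM in nuclei and from 12.3 ± 3.10 TPM to 1.12 ± 0.583 TPM and 1.90 ± 0.344 TPM in the cytoplasm. The summed fibroblast list, almost all of it FBLN1, was 4.15 to 5.36, 12.1 to 14.0 and 9.27 to 11.003 TPM in nuclei and 5.34 to 6.38, 5.66 to 6.73 and 5.68 to 6.91 TPM in the cytoplasm. Of the leukocyte list CD68 rose, by 2.72 and 2.57 in nuclei and 1.93 and 1.61 in the cytoplasm of these lines, while PTPRC and CD3E stayed below 0.1 TPM. In AGO1 knockout nuclei 2 of 6 tested colon epithelium genes were higher and 1 lower, CDH1 at -1.16, where 29.9% of all genes were called. In AGO2 knockout nuclei 4 of 6 were higher, EPCAM at 0.68 among them, and 0 lower, against 40.2%. The part of these markers in the collagen differences was not tested. In bulk RNA, fewer cells of a type and less RNA per cell cannot be told apart.

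COL17A1, the second transmembrane collagen measured here, is a hemidesmosome component of epithelia (chr10:104031286-104085880, minus strand). It had 0, 0 and 1 estimated reads in the wild-type cytoplasmic libraries, 11, 11 and 45 in the AGO1/2 and 18, 21 and 24 in the AGO1/2/3 knockout. Wild-type nuclei had 1, 4 and 9 reads, the AGO1/2 knockout nuclei 20, 25 and 44 and the AGO1/2/3 knockout nuclei 16, 21 and 22. In nuclei the AGO1/2 difference was called (adjusted p = 0.029) but lost in 4 alternatives, and the AGO1/2/3 difference was not (adjusted p = 0.096). Both cytoplasmic differences were called (adjusted p = 0.0063 and 0.01), and no fold is given because the wild-type reads are so few. All of its TPM in wild-type and AGO1/2/3 knockout nuclei fell on a 537-base transcript and none on the 5488-base one. The other transmembrane genes, COL23A1 and COL25A1, were not tested.

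**Figure D3:**
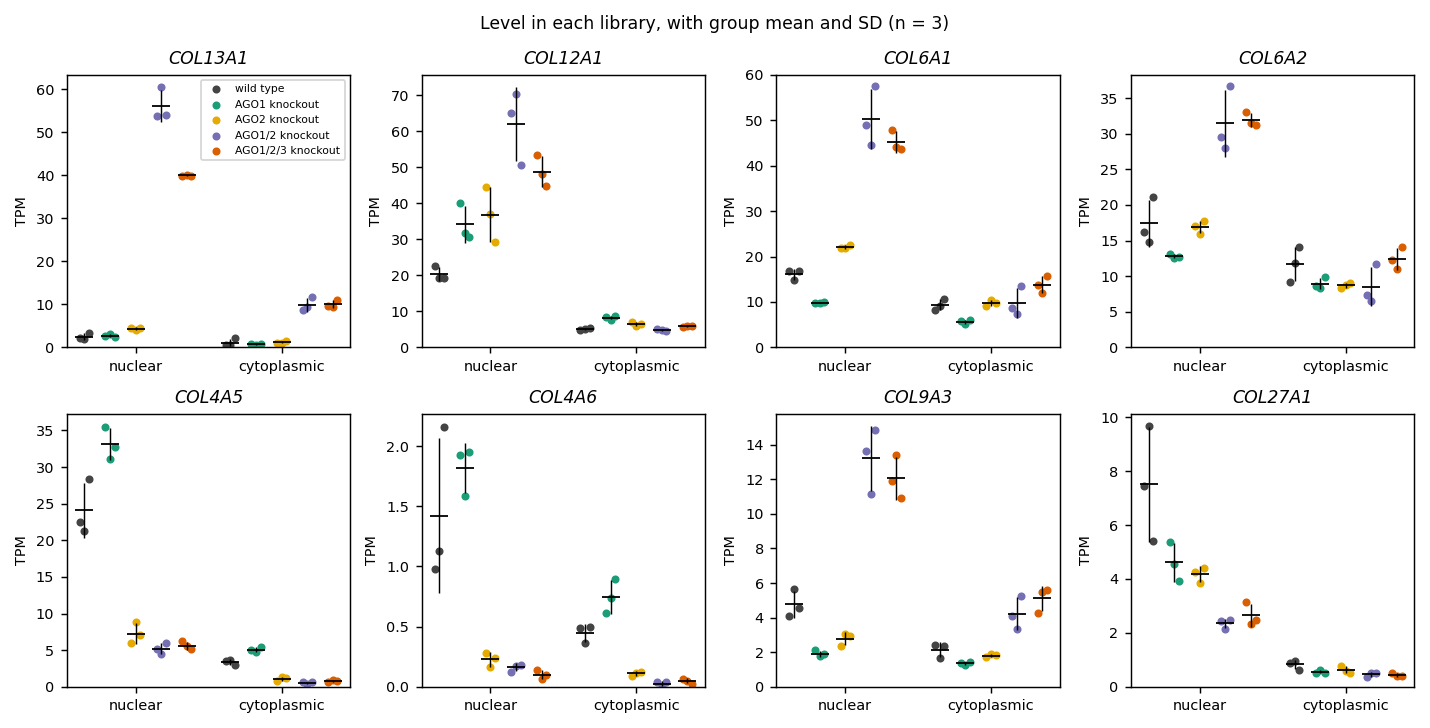
TPM of 8 collagen genes in every library, nuclear and cytoplasmic, with the group mean (bar) and SD (line), n = 3. COL13A1 reaches 53.8 to 60.5 TPM in AGO1/2 knockout nuclei against 2.03 to 3.38 in wild type, and COL4A5 falls from 21.3 to 28.3 TPM in wild-type nuclei to 4.44 to 6.03 in the AGO1/2 knockout.

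Fibril-associated collagens do not form fibrils but bind to them. Of 10 genes 4 were tested: COL12A1, COL16A1, COL9A2 and COL9A3. In AGO1/2 and in AGO1/2/3 knockout nuclei 3 of these 4 were higher and 0 lower, where 67.6 and 58.6% of all genes were called, and in AGO1 knockout nuclei 1 was higher and 3 lower, against 29.9%.

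COL12A1 (chr6:75084326-75206267, minus strand), which encodes a long chain that links fibrils to their surroundings, was the collagen gene with most reads. Nuclear levels were 19.3, 19.3 and 22.5 TPM in wild type, 30.8, 31.7 and 40.2 TPM in the AGO1, 29.3, 37.0 and 44.5 TPM in the AGO2, 50.7, 65.2 and 70.5 TPM in the AGO1/2 and 45.0, 48.1 and 53.4 TPM in the AGO1/2/3 knockout. All 12 knockout libraries lay above the wild-type libraries. The log2 fold changes on reads were 0.94 ± 0.12 (adjusted p = 7.3e-05), 1.06 ± 0.12 (adjusted p = 1.2e-05), 1.60 ± 0.12 (adjusted p = 2.5e-08) and 1.46 ± 0.12 (adjusted p = 9.8e-08). In the cytoplasm they were 0.81 ± 0.093, 0.55 ± 0.093, 0.36 ± 0.093 and 0.41 ± 0.093, with adjusted p = 6.6e-05, 0.001, 0.0046 and 0.0027. The cytoplasmic AGO1/2 and AGO1/2/3 values depended on the scale: with limma on log2(TPM + 1) they were -0.061 and 0.18 and neither was called.

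The nuclear rise of COL12A1 exceeded the cytoplasmic one in the double and triple knockouts. The difference between the nuclear and the cytoplasmic log2 fold change, tested as an interaction over all 30 libraries, was 1.16 ± 0.16 (adjusted p = 3.8e-06) in the AGO1/2 and 0.97 ± 0.16 (adjusted p = 1.0e-04) in the AGO1/2/3 knockout. It was 0.15 ± 0.16 and 0.51 ± 0.16 in the AGO1 and AGO2 knockouts (adjusted p = 0.74 and 0.057). Its leading transcript, of 11723 bases, held 68.1% ± 1.40 of the TPM in wild-type and 69.7% ± 1.29 in AGO1/2/3 knockout nuclei.

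COL9A2 (chr1:40300489-40317813, minus strand) and COL9A3 (chr20:62816244-62841159, plus strand) encode chains of collagen IX, the fibril-associated collagen of cartilage. COL9A3 measured 4.10, 4.53 and 5.65 TPM in wild-type nuclei, 1.76, 1.87 and 2.11 TPM in the AGO1, 2.35, 2.96 and 3.04 TPM in the AGO2, 11.1, 13.6 and 14.8 TPM in the AGO1/2 and 10.9, 11.9 and 13.4 TPM in the AGO1/2/3 knockout. The single knockouts lay below wild type and the double and triple knockouts above it. Its nuclear log2 fold changes were -1.03 ± 0.18 (adjusted p = 6.4e-04), -0.52 ± 0.17 (adjusted p = 0.023), 1.500 ± 0.16 (adjusted p = 6.4e-07) and 1.55 ± 0.16 (adjusted p = 7.2e-07), and the AGO2 call was lost in 5 alternatives. COL9A2 was at lower levels, with 0.388, 0.474 and 0.650 TPM in wild-type, 1.39, 1.61 and 1.94 TPM in AGO1/2 and 1.61, 1.67 and 1.85 TPM in AGO1/2/3 knockout nuclei.

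For COL9A2 the nuclear log2 fold changes were -1.05 ± 0.22 in the AGO1, 0.64 ± 0.19 in the AGO2, 1.44 ± 0.18 in the AGO1/2 and 1.56 ± 0.18 in the AGO1/2/3 knockout, all called (adjusted p = 0.0023, 0.014, 5.0e-06 and 3.4e-06). The AGO1 call was lost in 3 alternatives, with -0.08 when reads were scaled by transcript length, and the AGO2 call in 4, with 0.45 for protein-coding transcripts only. In the cytoplasm COL9A2 and COL9A3 rose, at 1.57 ± 0.17 and 1.38 ± 0.17 in the AGO1/2 and 1.61 ± 0.17 and 1.51 ± 0.17 in the AGO1/2/3 knockout, all at an adjusted p of 1.2e-05 or less. No fraction difference was called for either gene. COL9A3 has 13 transcripts in the files, of which a 993-base transcript without a defined coding sequence led with 60.9% ± 6.46 of the TPM in wild-type and 74.6% ± 2.501 in AGO1/2/3 knockout nuclei. None of the COL9A3 TPM fell on its 1 protein-coding transcript in any group. Its changes are thus those of transcripts not annotated as coding. COL9A1, the remaining chain of this trimer, stayed below 0.1 TPM.

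COL16A1 (chr1:31652263-31704319, minus strand), another fibril-associated chain, was lower in the AGO1 and AGO2 knockouts. Wild-type nuclei held 1.23, 1.78 and 2.40 TPM, AGO1 knockout nuclei 0.116, 0.228 and 0.292 TPM and AGO2 knockout nuclei 0.406, 0.445 and 0.669 TPM, with no overlap between either knockout and wild type. AGO1/2 and AGO1/2/3 knockout nuclei, at 1.64 ± 0.338 TPM and 1.10 ± 0.294 TPM, overlapped it. The nuclear log2 fold changes were -2.52 ± 0.26 (adjusted p = 1.3e-05), -1.40 ± 0.23 (adjusted p = 2.9e-04), -0.24 ± 0.22 (adjusted p = 0.34) and -0.19 ± 0.22 (adjusted p = 0.46). In the cytoplasm COL16A1 fell in all 4 lines, at -2.94 ± 0.21, -1.74 ± 0.19, -0.66 ± 0.18 and -0.50 ± 0.18 on the log2 scale. The third call was lost with reads scaled by transcript length, and the last in 7 alternatives (-0.53 to -0.30).

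Type VI collagen forms beaded filaments around cells from chains of COL6A1, COL6A2 and another, longer chain. COL6A1 (chr21:45981770-46005050) and COL6A2 (chr21:46098112-46132848) lie on the same strand of chromosome 21, 93061 bases apart. COL6A1 measured 14.7, 16.8 and 16.8 TPM in wild-type nuclei, 9.68, 9.81 and 9.96 TPM in the AGO1, 21.8, 21.9 and 22.5 TPM in the AGO2, 44.4, 48.8 and 57.4 TPM in the AGO1/2 and 43.6, 44.1 and 47.9 TPM in the AGO1/2/3 knockout. AGO1 knockout libraries lay below wild type and the other 9 above. Its nuclear log2 fold changes were -0.43 ± 0.11 (adjusted p = 0.011), 0.76 ± 0.11 (adjusted p = 1.2e-04), 1.77 ± 0.12 (adjusted p = 4.8e-09) and 1.80 ± 0.12 (adjusted p = 6.7e-09), and the AGO1 call was lost without AGO1 knockout passage 6.

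COL6A2 measured 14.8, 16.3 and 21.2 TPM in wild-type, 28.1, 29.6 and 36.8 TPM in AGO1/2 and 31.2, 31.5 and 33.1 TPM in AGO1/2/3 knockout nuclei, without overlap. The log2 fold changes there were 1.003 ± 0.14 (adjusted p = 1.4e-05) and 1.19 ± 0.14 (adjusted p = 3.7e-06), against -0.14 ± 0.14 (adjusted p = 0.47) and 0.24 ± 0.14 (adjusted p = 0.19) in the single knockouts. In the cytoplasm the only called difference of the pair was COL6A1 in the AGO1/2/3 knockout, 0.86 ± 0.20 (adjusted p = 0.0028), and COL6A2 gave -0.087 ± 0.18 (adjusted p = 0.73) and 0.32 ± 0.18 (adjusted p = 0.19) in the double and triple knockouts. The nuclear effect was the larger by 1.21 ± 0.23 (adjusted p = 2.1e-04) for COL6A1 and 1.01 ± 0.24 (adjusted p = 0.0016) for COL6A2 in the AGO1/2 knockout, and by 0.86 ± 0.23 (adjusted p = 0.0089) and 0.80 ± 0.24 (adjusted p = 0.017) in the AGO1/2/3 knockout. COL6A3, the usual longer chain, had 15, 19 and 82 estimated reads in wild-type nuclei, at 0.0503, 0.0671 and 0.419 TPM, and 0, 1 and 2 in the AGO1 and 0, 2 and 6 in the AGO1/2/3 knockout, which leaves its called differences resting on few reads.

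Type IV chains form the basement membrane network as 3 kinds of trimer, and their genes lie in head-to-head pairs that share a promoter region. Of the 6 genes COL4A1 and COL4A2, the chains found in most basement membranes, were below 0.1 TPM in every group. COL4A5 (chrX:108439838-108697545, plus strand) and COL4A6 (chrX:108155607-108439497, minus strand) form the pair of which both genes were called in every nuclear comparison with wild type. Their RefSeq starts lie 379 bases apart, and the 250 bases before the COL4A5 start (chrX:108439588-108439837, GRCh38.p14, plus strand) are shown with the 121 bases that also belong to the upstream window of COL4A6 in capitals, because it is the stretch upstream of both:
COL4A5 upstream: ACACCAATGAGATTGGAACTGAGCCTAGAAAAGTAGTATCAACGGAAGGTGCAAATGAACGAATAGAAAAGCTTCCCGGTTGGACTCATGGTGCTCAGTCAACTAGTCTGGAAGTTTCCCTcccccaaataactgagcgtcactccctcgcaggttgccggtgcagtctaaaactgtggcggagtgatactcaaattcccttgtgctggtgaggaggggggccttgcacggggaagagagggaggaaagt
The window holds CCAAT once on each strand, within the capitals, as 32.0% of 35116 promoter windows of the same length hold it on either strand. Neither GGGCGG nor TATAAA was found on either strand in this window, which 42.6 and 10.7% of windows hold.

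Both genes of this pair rose in AGO1 knockout nuclei and fell in the other lines. COL4A5 measured 21.3, 22.5 and 28.3 TPM in wild-type nuclei, 31.1, 32.8 and 35.5 TPM in the AGO1, 5.92, 7.05 and 8.80 TPM in the AGO2, 4.44, 5.19 and 6.03 TPM in the AGO1/2 and 5.10, 5.58 and 6.20 TPM in the AGO1/2/3 knockout. All groups but wild type and AGO1 lay below 10 TPM. The log2 fold changes on reads were 0.78 ± 0.14 (adjusted p = 9.0e-04), -1.15 ± 0.14 (adjusted p = 2.9e-05), -1.61 ± 0.15 (adjusted p = 1.6e-07) and -1.32 ± 0.15 (adjusted p = 1.8e-06). COL4A6 measured 0.980, 1.13 and 2.16 TPM, 1.58, 1.92 and 1.95 TPM, 0.162, 0.239 and 0.281 TPM, 0.123, 0.175 and 0.184 TPM and 0.0675, 0.0947 and 0.141 TPM in the same order, with 0.79 ± 0.23 (adjusted p = 0.018), -2.02 ± 0.26 (adjusted p = 3.6e-05), -3.06 ± 0.28 (adjusted p = 1.5e-07) and -2.93 ± 0.28 (adjusted p = 3.9e-07). The AGO1 call of COL4A6 was lost in 7 alternatives, among them limma on log2(TPM + 1), at 0.25.

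The cytoplasm gave the same directions. COL4A5 changed by 1.04 ± 0.14, -1.16 ± 0.15, -1.77 ± 0.15 and -1.61 ± 0.15, all called (adjusted p = 2.7e-04, 9.4e-05, 3.1e-07 and 1.1e-06), the first not with limma on log2(TPM + 0.1). COL4A6 was at 0.99 ± 0.42 (adjusted p = 0.14) in the AGO1 knockout and fell, at -1.61 ± 0.45, -3.50 ± 0.52 and -2.90 ± 0.49 in the others, of which the AGO2 call was lost in 5 alternatives, DESeq2 among them. No fraction difference was called for either gene. Part of the nuclear COL4A5 signal lay on a 782-base intron-retaining transcript, with 27.0% ± 2.35 of the TPM in wild-type and 16.3% ± 2.76 in AGO1/2/3 knockout nuclei. Protein-coding transcripts held 49.9% ± 8.52 of COL4A5 TPM in wild-type, 68.4% ± 6.22 in AGO1/2 and 70.5% ± 7.197 in AGO1/2/3 knockout nuclei (exact two-sided permutation p = 0.1 for both, and 0.488 after adjustment over 122 such tests).

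COL4A4 (chr2:227002714-227164453, minus strand) and COL4A3 (chr2:227164624-227314792, plus strand) form the second pair, with 170 bases between their annotated ends, and encode the partners of COL4A5 in the trimer of the kidney filter. They did not follow COL4A5. COL4A3 measured 1.92, 2.28 and 2.81 TPM and COL4A4 2.05, 2.24 and 2.54 TPM in wild-type nuclei. In the AGO1 knockout, where COL4A5 rose, they fell, at -1.04 ± 0.30 (adjusted p = 0.016) and -0.51 ± 0.11 (adjusted p = 0.0027), and the COL4A3 call was lost in 3 alternatives, at -0.53 without wild-type passage 29. In the AGO1/2 and AGO1/2/3 knockouts COL4A3 gave -0.13 ± 0.28 (adjusted p = 0.7) and 0.17 ± 0.28 (adjusted p = 0.62), and COL4A4 0.011 ± 0.11 (adjusted p = 0.94) and 0.15 ± 0.11 (adjusted p = 0.23).

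Fibrillar collagens were represented by COL1A1 and COL27A1 at 1 TPM or more, and 6 of 11 genes were tested in nuclei. COL1A1 (chr17:50184101-50201632, minus strand), the main chain of type I collagen, measured 4.57, 5.64 and 6.21 TPM in wild-type nuclei and 3.57, 3.82 and 4.16 TPM in AGO1/2/3 knockout nuclei. It was called only in that line among 8 comparisons, at -0.26 ± 0.11 (adjusted p = 0.047), and the call was lost in 8 alternatives, with a value of -0.09 without wild-type passage 29. COL1A2, the chain it pairs with in type I collagen, was at 0.1 TPM or less in all groups, and 39.6% ± 4.92 of COL1A1 TPM in wild-type nuclei fell on a 549-base transcript.

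COL27A1 (chr9:114155537-114312511, plus strand), a fibrillar chain of cartilage and other tissues, fell in all 4 nuclear comparisons. It measured 5.41, 7.47 and 9.66 TPM in wild type, 3.91, 4.57 and 5.36 TPM in the AGO1, 3.84, 4.25 and 4.42 TPM in the AGO2, 2.16, 2.42 and 2.46 TPM in the AGO1/2 and 2.34, 2.49 and 3.13 TPM in the AGO1/2/3 knockout, every knockout library below every wild-type library. Its log2 fold changes were -0.51 ± 0.11 (adjusted p = 0.0026), -0.46 ± 0.11 (adjusted p = 0.0036), -1.38 ± 0.11 (adjusted p = 4.2e-08) and -1.24 ± 0.11 (adjusted p = 2.1e-07). The cytoplasmic values were -0.48 ± 0.10 (adjusted p = 0.0068), -0.14 ± 0.10 (adjusted p = 0.4), -0.53 ± 0.10 (adjusted p = 5.2e-04) and -0.55 ± 0.10 (adjusted p = 5.4e-04), with the AGO1 call lost in 3 alternatives and the AGO1/2 call in 1. Here the nuclear fall was the larger, with a difference of -0.93 ± 0.16 (adjusted p = 4.7e-05) in the AGO1/2 and -0.76 ± 0.16 (adjusted p = 9.0e-04) in the AGO1/2/3 knockout.

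COL18A1 (chr21:45405165-45513720, plus strand) encodes a basement membrane collagen whose end piece is endostatin, and COL7A1 (chr3:48564073-48595329, minus strand) the chain of the anchoring fibrils of skin. COL18A1 measured 5.21, 5.77 and 8.28 TPM in wild-type nuclei and changed by -0.74 ± 0.11 (adjusted p = 2.4e-04) in the AGO1, 0.55 ± 0.11 (adjusted p = 8.7e-04) in the AGO2 and -0.34 ± 0.11 (adjusted p = 0.012) in the AGO1/2 knockout, the last of which was lost in 9 alternatives and became 0.069 with reads scaled by transcript length. The AGO2 call was lost in 3. A 588-base transcript without a defined coding sequence held 71.7% ± 10.1 of its TPM in wild-type nuclei. COL7A1 measured 1.06, 1.10 and 1.44 TPM in wild-type nuclei and was called in 1 of 8 comparisons, in AGO1/2 knockout nuclei, at -0.58 ± 0.14 (adjusted p = 0.002). That call was lost with limma on log2(TPM + 1) and log2(TPM + 0.1) and with reads scaled by transcript length, at -0.25, -0.45 and -0.37. Intron-retaining transcripts led COL7A1, and its protein-coding transcripts held 13.5% ± 3.26 of TPM in wild-type nuclei.

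The tested genes below 1 TPM in every group gave few reads. COL5A3, at 0.0343 ± 0.0151 TPM in wild-type, 0.216 ± 0.0559 TPM in AGO1/2 and 0.116 ± 0.0411 TPM in AGO1/2/3 knockout nuclei, was called higher in both. COL15A1 likewise went from 2, 3 and 4 estimated reads in wild-type to 26, 34 and 50 and 24, 41 and 42 in those lines. COL5A2, at 0.466 ± 0.126 TPM in wild-type nuclei, fell, at -0.67 ± 0.15 (adjusted p = 0.0012) in the AGO1/2 knockout. These 3 were named after their values were seen. The remaining tested members, COL11A2, COL24A1, COL26A1, COL28A1 and COL4A1, reached a group mean of 0.741 TPM at most, and in the knockout comparisons only COL11A2 in the AGO1/2 knockout was called, at -0.52 ± 0.18.

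Between fractions, more collagen genes were called higher in nuclei than in cytoplasm. In the fit of all 30 libraries 28 members were tested, and 15 were higher and 0 lower in wild-type nuclei than in wild-type cytoplasm, where 39.6% of all genes were higher in nuclei. The counts were 15 higher and 1 lower in the AGO1 (40.0%), 18 and 0 in the AGO2 (39.8%), 18 and 1 in the AGO1/2 (36.9%) and 18 and 1 in the AGO1/2/3 knockout (36.1%). The median log2 ratio of nuclear over cytoplasmic RNA was 1.02 in wild type against 0.04 over all genes, on a scale where each fraction is normalized to its own total, so that it does not give molecules per cell.

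Among single genes COL7A1 had a log2 ratio of 2.77 ± 0.21, COL4A3 2.33 ± 0.34, COL27A1 2.15 ± 0.11 and COL4A5 1.61 ± 0.15 in wild type, all called. COL6A1 and COL6A2 did not pass the test there, at 0.15 ± 0.17 (adjusted p = 0.42) and -0.17 ± 0.17 (adjusted p = 0.36), and were higher in nuclei of the AGO1/2 knockout, at 1.36 ± 0.17 and 0.84 ± 0.17. COL9A2 was the called member on the cytoplasmic side, at -0.56 ± 0.21 (adjusted p = 0.02) in the AGO1, -0.46 ± 0.16 (adjusted p = 0.013) in the AGO1/2 and -0.38 ± 0.16 (adjusted p = 0.036) in the AGO1/2/3 knockout, calls lost in 3, 2 and 7 alternatives.

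**Figure D4:**
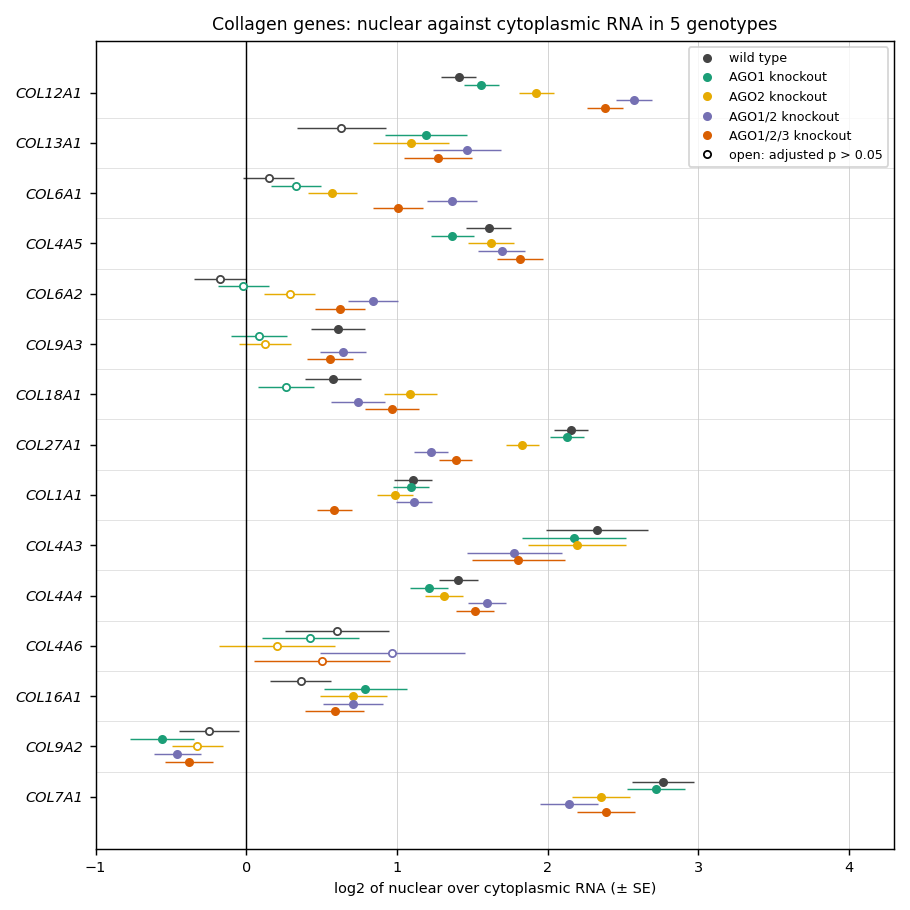
Log2 ratio of nuclear over cytoplasmic RNA with its standard error for 15 collagen genes in the 5 genotypes, with filled points for calls. COL12A1, COL6A1 and COL6A2 lie further to the right in the AGO1/2 and AGO1/2/3 knockouts than in wild type, COL27A1 lies further to the left, and COL9A2 is the gene to the left of 0 in all 5.

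The difference between the nuclear and the cytoplasmic knockout effect was called for 0 of 28 members in the AGO1 knockout, against 0.662% of all genes, and for 0 in the AGO2 knockout, against 5.76%. At an unadjusted p of at most 0.05 edgeR gave 1 and 4 members, and DESeq2 called 0 in both. With a block for each passage of a line, COL12A1 and COL6A2 were called in the AGO2 knockout. It was called for 4 members in the AGO1/2 (36.5%) and 6 in the AGO1/2/3 knockout (22.7%). The 4 were COL12A1, COL6A1 and COL6A2, with the larger rise in nuclei, and COL27A1, with the larger fall in nuclei. The 6 were these 4, COL1A1 at -0.52 ± 0.17 (adjusted p = 0.028) and COL21A1, which has almost no reads. The shares of members were thus below the background in the AGO1/2 and near it in the AGO1/2/3 knockout.

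miR-29 and let-7 are microRNAs whose seed, bases 2 to 8, pairs with messages in the 3′ UTR, and they are shown with the seed in capitals because the site counts rest on it (RefSeq, GRCh38.p14). The 3 shown of each family share 1 seed:
hsa-miR-29a-3p: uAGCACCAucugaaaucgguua
hsa-miR-29b-3p: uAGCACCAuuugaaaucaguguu
hsa-miR-29c-3p: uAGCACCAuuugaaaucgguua
hsa-let-7a-5p: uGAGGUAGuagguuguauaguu
hsa-let-7b-5p: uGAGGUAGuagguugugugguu
hsa-let-7g-5p: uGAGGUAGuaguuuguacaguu
The 7 bases complementary to the miR-29 seed, TGGTGCT, were searched on the sense strand in the longest annotated 3′ UTR of each gene (GENCODE 44), and likewise CTACCTC for let-7. A miR-29 match was present in 26 of 44 collagen genes, 59.1%, against 15.1% of 19121 protein-coding genes, at a median 3′ UTR length of 1194.5 and 1233.0 bases. A let-7 match was present in 10, 22.7%, against 10.6%. Among the 25 members tested in nuclei 13 held a miR-29 match, 52.0%, against 17.4% of tested protein-coding genes. A match is a run of letters and was not tested for binding.

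The matches of the 8 genes at 1 TPM or more that hold one read as follows, with the 7 bases in capitals, 5′ to 3′ on the strand of the gene, at positions of the GRCh38 genome:
COL4A5 (chrX:108696470-108696491): actgctgccgtcaaTGGTGCTa
COL4A6 (chrX:108156771-108156792): tgtttctgtcaagcTGGTGCTa
COL27A1 (chr9:114311286-114311307): cactgtgaaatcgcTGGTGCTc
COL1A1 (chr17:50184572-50184593): ggggagggaatcacTGGTGCTa
COL16A1 (chr1:31652463-31652484): ccagtgggttcctcTGGTGCTg
COL7A1 (chr3:48564322-48564343): actgtccctcccctTGGTGCTa
COL4A3 (chr2:227314155-227314176): taaaagccctagacTGGTGCTa
COL4A4 (chr2:227007236-227007257): gctaagagatgtcaTGGTGCTc
COL4A3 and COL7A1 hold 2 and COL4A4 holds 3 such matches, of which 1 each is shown. Of the 16, the genes called higher in the AGO1/2 or AGO1/2/3 knockout in either fraction (COL13A1, COL12A1, COL6A1, COL6A2, COL9A2, COL9A3 and COL17A1) hold none in their longest 3′ UTR, nor does COL18A1, called higher in AGO2 knockout nuclei. COL4A5 and COL4A6 hold 1 each and were called higher in AGO1 knockout nuclei and lower in the other lines. COL6A2 holds one in its canonical transcript. The 3′ UTR searched need not be on the RNA measured. None of the COL9A3 TPM fell on its protein-coding transcript. In wild-type nuclei protein-coding transcripts held 22.9% ± 7.85 of COL18A1 TPM and 13.5% ± 3.26 of COL7A1 TPM. All COL17A1 TPM there fell on a transcript shorter than the 949-base 3′ UTR searched. Whether the measured RNA of these genes carries the searched 3′ UTR was not tested.

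In AGO1/2 knockout nuclei the 13 members with a miR-29 match had a median log2 fold change of -0.24, with 2 higher and 6 lower, and the 12 without one 1.22, with 7 higher and 2 lower. In the AGO1/2/3 knockout the medians were -0.26 (2 higher, 5 lower) and 1.29 (6 higher, 0 lower). Over all genes tested 67.6 and 58.6% were called in these 2 lines. Of 2331 protein-coding genes with a match 1010 were higher and 698 lower in the AGO1/2 knockout. In the AGO1/2/3 knockout 861 were higher and 669 lower. Over all tested protein-coding genes the medians with and without a match were 0.12 and 0.17 in the AGO1/2 and 0.084 and 0.13 in the AGO1/2/3 knockout. The AGO1 knockout gave no such gap, with nuclear medians of -0.51 with and -0.47 without a match. The AGO2 knockout gave one, with nuclear medians of -0.46 with and 0.40 without a match. In the cytoplasm, with 11 and 10 members, the medians with and without a match were -0.30 and -0.46 in the AGO1, -0.34 and 0.19 in the AGO2, -0.29 and 0.42 in the AGO1/2 and -0.038 and 0.88 in the AGO1/2/3 knockout. The 2 members with a match that rose in each of the double and triple knockouts were COL15A1 and COL5A3, both below 1 TPM. With the canonical transcript in place of the longest 3′ UTR, a choice made after seeing the data, 15 of 25 held a match and the medians were -0.21 and 1.47 in the AGO1/2 and -0.22 and 1.43 in the AGO1/2/3 knockout. A gap was also seen for let-7. Nuclear medians of the 6 members with and the 19 without a let-7 match were -0.44 and 0.23 in the AGO1/2 knockout. They were -0.45 and 0.17 in the AGO1/2/3 knockout. For the 5 and 16 cytoplasmic members they were -0.53 and 0.35, and -0.30 and 0.74. In the AGO1 and AGO2 knockouts the nuclear medians were -0.017 and -0.74, and -0.46 and -0.25. All 6 nuclear members with a let-7 match also hold a miR-29 match. Whether any of these differences between sets is larger than chance was not tested.

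**Figure D5:**
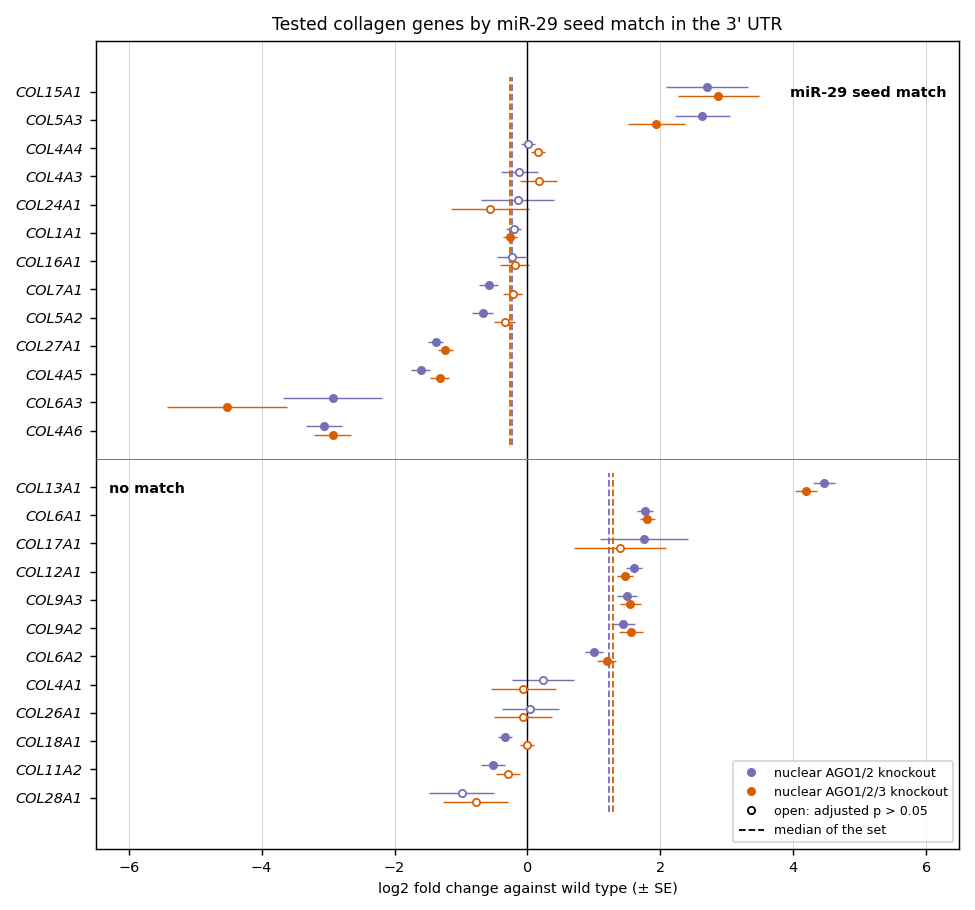
Log2 fold change with its standard error of the 25 collagen genes tested in nuclear RNA, AGO1/2 and AGO1/2/3 knockouts against wild type, split by a miR-29 seed match in the longest 3′ UTR, with filled points for calls and dashed lines at the set medians. The medians are -0.24 and -0.26 with a match and 1.22 and 1.29 without, and COL15A1 and COL5A3, the rising genes with a match, are expressed below 1 TPM.

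Collagen chains need enzymes and chaperones before they fold. Apart from CTSK, the partner genes named from here on had the largest absolute log2 fold changes among the called genes of their list in AGO1/2/3 knockout nuclei. Their values therefore do not stand for their lists. Of 21 genes of collagen modification and folding 20 were tested in nuclei, and 16 were higher and 3 lower in the AGO1/2 and 15 higher and 3 lower in the AGO1/2/3 knockout, at median log2 fold changes of 0.87 and 0.88 against -0.06 and -0.03 over all genes, of which 67.6 and 58.6% were called. In the AGO2 knockout 14 were higher and 1 lower (40.2% of all genes called), and in the AGO1 knockout 1 higher and 5 lower (29.9%). SERPINH1, the collagen chaperone HSP47, went from 22.8 to 31.5 TPM in wild-type to 81.0 to 104.4 TPM and 64.7 to 80.4 TPM in AGO1/2 and AGO1/2/3 knockout nuclei, at 1.71 ± 0.10 (adjusted p = 2.0e-09) and 1.55 ± 0.10 (adjusted p = 8.4e-09). P4HB, a subunit of prolyl hydroxylase, changed by 1.33 ± 0.073 (adjusted p = 1.7e-09) in the triple knockout, PPIB, a proline isomerase, by 1.13 ± 0.066 (adjusted p = 2.8e-09) and PLOD3, a lysyl hydroxylase, by 1.14 ± 0.07 (adjusted p = 4.5e-09). P3H2, a prolyl 3-hydroxylase at 0.334 ± 0.255 TPM in wild-type nuclei, fell, at -1.34 ± 0.46 (adjusted p = 0.021), a call lost in 5 alternatives. In the cytoplasm 8 were higher and 3 lower of 21 in the AGO1/2 and 9 and 3 in the AGO1/2/3 knockout, at medians of 0.028 and 0.14, where 49.2 and 38.7% of all genes were called.

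Genes of export, propeptide cleavage and crosslinking gave 13 higher and 3 lower of 19 in the AGO1/2 and 13 higher and 2 lower in the AGO1/2/3 knockout nuclei, where 67.6 and 58.6% of all genes were called. In the cytoplasm they gave 8 higher and 4 lower, and 9 higher and 3 lower, against 49.2 and 38.7%. TGM2, a transglutaminase, went from 2.78 ± 0.506 TPM to 23.3 ± 5.63 TPM and 11.3 ± 1.22 TPM, at 3.30 ± 0.17 (adjusted p = 4.8e-10) and 2.41 ± 0.17 (adjusted p = 1.4e-08). LOXL4, a lysyl oxidase, and ADAMTS2, which removes the amino-terminal propeptide, rose by 2.78 ± 0.34 and 2.05 ± 0.17 in the triple knockout. SPARC, a collagen-binding glycoprotein, was lower in AGO1 and AGO2 knockout nuclei (-3.46 ± 0.65 and -2.82 ± 0.58) and higher in AGO1/2 and AGO1/2/3 knockout nuclei (1.43 ± 0.41 and 2.23 ± 0.41), all called. The AGO1/2 knockout nuclei, at 1.42 to 4.14 TPM, overlapped wild type, at 0.909 to 1.72 TPM. In the cytoplasm the single knockouts were called lower (-3.35 and -3.23). The AGO1/2 and AGO1/2/3 differences there, 0.59 and 1.23, were not called (adjusted p = 0.36 and 0.067). TLL1, a tolloid protease at 0.344 ± 0.0590 TPM in wild-type nuclei, fell, at -1.87 ± 0.27 in the triple knockout.

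Of 8 tested receptor and uptake genes 3 were higher and 3 lower in AGO1/2 and 3 higher and 2 lower in AGO1/2/3 knockout nuclei, shares near those of all genes (67.6 and 58.6%). In the cytoplasm 1 was higher and 3 lower in the AGO1/2, and 3 higher and 2 lower in the AGO1/2/3 knockout (49.2 and 38.7%). ITGA2, the collagen-binding integrin chain of epithelia, went from 25.0 ± 11.2 TPM to 6.04 ± 0.642 TPM and 8.82 ± 0.541 TPM, at -2.02 ± 0.25 (adjusted p = 4.0e-06) and -1.30 ± 0.24 (adjusted p = 3.1e-04), and ITGA1 from 1.53 ± 0.320 TPM to 0.0329 ± 0.0214 TPM and 0.0875 ± 0.0590 TPM. Their shared partner chain ITGB1 rose by 0.77 ± 0.15, the collagen receptor kinase DDR1 by 0.89 ± 0.097 and the uptake receptor MRC2 by 1.66 ± 0.28 in the triple knockout. Of the collagen-degrading enzymes 4 of 9 were tested in nuclei, with 3 higher and 1 lower in the AGO1/2 and 3 higher and 0 lower in the AGO1/2/3 knockout (67.6 and 58.6% of all genes called). The lower one was CTSK, named after its values were seen, and the 3 were MMP14, CTSB and CTSL, at 0.87 ± 0.13, 0.69 ± 0.13 and 0.54 ± 0.14 in the triple knockout, the last lost in 3 alternatives (0.32 to 0.33). In the cytoplasm 0 of 5 were higher and 1 lower in each line, namely CTSL, at -0.47 ± 0.11 (adjusted p = 0.0022) and -0.38 ± 0.11 (adjusted p = 0.011), where 49.2 and 38.7% of all genes were called.

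Basement membrane partners showed 4 higher and 4 lower of 13 in AGO1/2 and 5 higher and 2 lower in AGO1/2/3 knockout nuclei, beside 67.6 and 58.6% of all genes called. In the cytoplasm 3 were higher and 5 lower in both lines, at medians of -0.47 and -0.16 (49.2 and 38.7% of all genes called). ITGB4, the integrin chain that binds COL17A1 in hemidesmosomes, went from 63.9 ± 20.6 TPM to 285 ± 49.8 TPM and 299 ± 18.8 TPM, at 2.19 ± 0.21 (adjusted p = 3.0e-07) and 2.44 ± 0.21 (adjusted p = 1.7e-07). HSPG2, the proteoglycan perlecan, rose by 2.04 ± 0.23 (adjusted p = 2.2e-06), ITGA6, the partner of ITGB4, by 1.10 ± 0.15 (adjusted p = 1.5e-05), a call lost on both TPM scales, and PLEC, the cytoskeletal linker plectin, by 0.56 ± 0.12 (adjusted p = 0.0014). LAMA3, a laminin chain, fell, at -0.53 ± 0.21 (adjusted p = 0.039), a call lost in 5 alternatives, with a value of -0.08 without wild-type passage 29.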

How the data were processed

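RNA of 30 nuclear and cytoplasmic libraries was analysed; the eCLIP samples were not analysed here. Alignment by the authors used STAR, and transcript abundances came from Salmon, for which the submitters' processing notes give versions 2.5.3a and 0.11.0 and the build hg38, and the paper's methods give other versions. The deposited files hold estimated counts and TPM per transcript, with replicates not pooled, and effective lengths as Salmon made them. Of 200401 transcripts 196040 (97.82%) matched GENCODE 44, were summed per gene and, for estimated counts, rounded.

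Tests used edgeR 4.0.16 (quasi-likelihood, TMM, filterByExpr at a minimum count of 10, adjusted by the Benjamini-Hochberg method over 18919 nuclear, 17605 cytoplasmic or 20104 genes of both fractions), with 15 libraries per fraction, or all 30 for fractions and their interaction. The edgeR test was run on simulated data with far fewer changed genes than were called in the comparisons simulated. That run does not show how the test performs where most genes are called. Errors are SD for levels (n = 3) and SE for log2 fold changes. Each SE was derived as the absolute log2 fold change divided by the square root of its quasi-likelihood F statistic. Alternatives used DESeq2 1.42.0, limma 3.58.1 on log2(TPM + 1) and log2(TPM + 0.1), other filters, length-scaled counts, coding transcripts only, the 2 groups alone, a replicate block and each library left out. Named genes were the members at 1 TPM or more in a group. Partner genes were named within each list for the largest absolute log2 fold changes among those called in AGO1/2/3 knockout nuclei. Members and lists were chosen with earlier results of these data known. Promoters and miRNAs came from RefSeq (GRCh38.p14). Passage numbers pair nuclear and cytoplasmic libraries by name, and the main tests between fractions did not use this pairing.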

Additional observations from a re-analysis of the deposited data

Results flagged for a closer look

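The knockout effect differed between nuclear and cytoplasmic RNA for 5 of the 16 collagen genes at 1 TPM or more in a group, and for COL21A1, which has almost no reads, by the interaction term of edgeR's quasi-likelihood test over 30 libraries. In the AGO1/2 knockout the nuclear log2 fold change exceeded the cytoplasmic one by 1.16 ± 0.16 (adjusted p = 3.8e-06) for COL12A1, 1.21 ± 0.23 (adjusted p = 2.1e-04) for COL6A1 and 1.01 ± 0.24 (adjusted p = 0.0016) for COL6A2, and the difference was -0.93 ± 0.16 (adjusted p = 4.7e-05) for COL27A1. In the AGO1/2/3 knockout the differences were 0.97 ± 0.16 (adjusted p = 1.0e-04), 0.86 ± 0.23 (adjusted p = 0.0089), 0.80 ± 0.24 (adjusted p = 0.017) and -0.76 ± 0.16 (adjusted p = 9.0e-04) in the same gene order, and -0.52 ± 0.17 (adjusted p = 0.028) for COL1A1. The COL1A1 call was lost when any 1 of 6 libraries was left out, and that of COL6A2 in the AGO1/2/3 knockout with any 1 of 3. Over all genes tested 36.5% were called in the AGO1/2 and 22.7% in the AGO1/2/3 knockout, and of the 28 members 4 and 6.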

How the results depend on the processing

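Counts of called collagen genes were recomputed under each alternative. With limma on log2(TPM + 1) or on log2(TPM + 0.1), 11 in place of 17 genes were called in AGO1/2 knockout nuclei. Leaving out 1 library gave 11 to 14 calls for the AGO1, 10 to 12 for the AGO2, 15 to 18 for the AGO1/2 and 12 to 15 for the AGO1/2/3 knockout in nuclei. In the cytoplasm the ranges were 5 to 8, 5 to 8, 13 to 15 and 11 to 14. Between fractions they were 12 to 17 in wild type, 13 to 17, 15 to 17, 17 to 18 and 15 to 18. For the fraction difference they were 0 to 0, 0 to 1, 4 to 6 and 3 to 6, the 3 without AGO1/2/3 cytoplasmic passage 12, and the 1 being COL12A1 in the AGO2 knockout without wild-type passage 27 of either fraction or nuclear AGO2 passage 10. With a replicate block the fraction difference was called for 2 genes in the AGO2 (COL12A1 and COL6A2), 7 in the AGO1/2 and 8 in the AGO1/2/3 knockout. Same-passage deviations correlated at -0.00 to 0.63 between fractions, not above 0.1 in every pair. In wild type they correlated at 0.34, 0.34 and 0.63. All 3 passages correlated best with their own number in the AGO1 and AGO2 knockouts, 2 in the AGO1/2 and AGO1/2/3 knockouts and 1 in wild type. Libraries of a passage thus resembled each other in part, and the main fit between fractions did not use this. No paired analysis was possible because wild-type and knockout cells share no passage number, for the comparisons between them. At thresholds of 0.1 and 5 TPM, 25 and 9 members passed in place of 16. Directions turned for COL4A4 in AGO1/2 nuclei with coding transcripts only (-0.28), COL12A1 in AGO1/2 cytoplasm on both TPM scales (-0.061 and -0.072), COL18A1 in AGO1/2 nuclei with length-scaled counts (0.069) and COL13A1 in AGO1 cytoplasm, which ranged from -0.52 to 0.74 with 1 library left out. The cause was not tested.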
